A study of Mus musculus with 8 samples.

Results

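The genes described here encode sensors of double-stranded RNA, adaptors and kinases that act after them, and a related adaptor, Myd88. The sensors are Ddx58 (now also named Rigi), Ifih1, Dhx58, Tlr3 and Eif2ak2. The adaptors are Mavs, Ticam1 and Myd88, and the kinases are Tbk1 and Ikbke. These genes were chosen by gene symbol, and all 10 were found among the 18088 genes of the count table. All passed the filter on low counts, which left 17972 genes for testing. The count table holds only genes over 1 CPM (a count scaled to the library total) in at least 4 libraries, and each of the 10 genes was above that level in all 8. RNA sequencing covered wild-type 3T3-L1 adipocytes, cells of a mouse preadipocyte line that store fat once they are differentiated, which were detached and transfected in suspension with Dharmafect-Duo. There were 4 libraries of cells given siRNA targeting Erk3 (siERK3) and 4 libraries of cells given a nontargeting siRNA (siNTC), both at 1.25 nM siRNA per square centimeter and both used 48 h later. Whether the 4 replicates came from separate differentiations, transfections or dishes is not stated, and the spread behind each p-value is that between these libraries, which may be technical. No library without siRNA was analysed here, so what siRNA and transfection reagent do to these genes in both groups was not tested. Nor was any other siRNA against Erk3 analysed, so a response to the siERK3 reagent itself cannot be told apart from loss of Erk3. The paper states that its siRNAs were bought as pools.

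RIG-I (Ddx58) and MDA5 (Ifih1) are cytosolic helicases that bind double-stranded RNA and then signal through MAVS on the outer mitochondrial membrane, while LGP2 (Dhx58) lacks the signaling domains of both and modulates them. TLR3 binds double-stranded RNA inside endosomes and signals through TRIF (Ticam1), and PKR (Eif2ak2) is a kinase that, once bound to double-stranded RNA, phosphorylates the translation factor eIF2α. MAVS and TRIF lead to the kinases TBK1 and IKKε (Ikbke), which phosphorylate interferon regulatory factors, and interferon in turn raises the transcription of many sensor genes through interferon-stimulated response elements (ISREs) in their promoters. MYD88, the adaptor of the other Toll-like receptors and of interleukin-1 receptors, is not used by TLR3.

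The promoters are shown first because interferon acts on many such genes through ISREs. Promoter sequences, from 250 bases before to 50 bases after the transcription start, were taken from a table of RefSeq promoters (GRCm38.p6), in which 9 of the 10 genes were matched, all but Dhx58. They were searched on both strands for the core of the ISRE, GAAANNGAAA (TTTCNNTTTC on the other strand), and 4 of the 9 held it, against 3.44% of all 32851 promoters of the same length (1131 of them). A match is a description of these letters and not a site shown to be used. The core began at base 3 after the start in Ddx58 (on the strand opposite to the gene), at base 33 in Ifih1 and at base 19 in Eif2ak2, counting the start site as base 1. In Myd88 it began 40 bases before the start that RefSeq gives, which lies inside the gene as annotated in GENCODE. The 4 promoters are printed 5′ to 3′ on the strand of the gene with the core in capitals, and that of Mavs, the gene that was lower in siERK3, follows for comparison with no such core. The windows are chr4:40239776-40240075 for Ddx58, chr2:62646206-62646505 for Ifih1, chr17:78882523-78882822 for Eif2ak2 and chr9:119339969-119340268 for Myd88, all on the minus strand, and chr2:131233813-131234112 on the plus strand for Mavs.
Ddx58: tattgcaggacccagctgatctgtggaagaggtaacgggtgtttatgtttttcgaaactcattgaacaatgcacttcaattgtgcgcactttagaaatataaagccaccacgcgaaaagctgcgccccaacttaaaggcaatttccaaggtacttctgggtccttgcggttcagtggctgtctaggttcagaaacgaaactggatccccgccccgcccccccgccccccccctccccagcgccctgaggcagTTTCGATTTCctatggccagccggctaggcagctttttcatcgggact
Ifih1: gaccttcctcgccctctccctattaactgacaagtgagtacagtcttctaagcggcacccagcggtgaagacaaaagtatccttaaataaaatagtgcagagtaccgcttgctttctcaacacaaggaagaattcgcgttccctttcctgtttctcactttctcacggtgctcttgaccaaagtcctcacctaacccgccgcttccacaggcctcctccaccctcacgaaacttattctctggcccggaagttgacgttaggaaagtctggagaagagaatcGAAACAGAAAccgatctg
Eif2ak2: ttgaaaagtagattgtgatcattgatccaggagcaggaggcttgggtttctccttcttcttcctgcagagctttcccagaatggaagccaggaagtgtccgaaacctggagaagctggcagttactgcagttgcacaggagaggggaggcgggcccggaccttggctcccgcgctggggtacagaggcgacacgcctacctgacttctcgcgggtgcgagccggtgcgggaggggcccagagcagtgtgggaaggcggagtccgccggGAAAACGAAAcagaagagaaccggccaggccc
Myd88: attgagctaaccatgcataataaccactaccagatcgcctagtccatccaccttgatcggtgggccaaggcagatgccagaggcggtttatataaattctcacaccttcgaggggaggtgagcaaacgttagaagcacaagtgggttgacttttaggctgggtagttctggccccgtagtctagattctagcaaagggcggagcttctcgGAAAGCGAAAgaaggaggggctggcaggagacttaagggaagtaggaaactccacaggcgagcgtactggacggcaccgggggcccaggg
Mavs: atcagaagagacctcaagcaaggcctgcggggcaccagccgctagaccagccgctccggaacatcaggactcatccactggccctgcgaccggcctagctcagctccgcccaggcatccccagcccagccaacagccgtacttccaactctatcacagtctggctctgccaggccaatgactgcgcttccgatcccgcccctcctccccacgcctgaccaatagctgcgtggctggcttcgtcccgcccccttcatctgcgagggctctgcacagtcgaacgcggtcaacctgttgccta

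A pair of other motifs was searched in the same windows. The gamma-activated sequence TTCNNNGAA, the site of STAT dimers, reads the same on both strands and occurred in Eif2ak2, 178 bases before the start, and in Myd88, 46 bases before it, where it overlaps the ISRE core. It is held by 8.30% of all promoters (2726). The NF-κB motif GGGNNTTTCC (GGAAANNCCC on the other strand) occurred in Tlr3, 211 bases before the start, and in 1.63% of all promoters (535). As for Myd88, the start that RefSeq gives for Tlr3 lies well inside the gene as annotated in GENCODE. The windows of Mavs, Ticam1, Tbk1 and Ikbke held none of the 3 motifs. All 4 genes with the ISRE core were higher in siERK3 than in siNTC adipocytes, and so were Tlr3, Tbk1 and Ikbke, whose windows do not hold it.

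Of the 10 genes, 8 were higher in siERK3 than in siNTC adipocytes, 1 was lower (Mavs) and 1 was not called (Ticam1) at a Benjamini-Hochberg adjusted p under 0.05 from edgeR's quasi-likelihood test. Over all genes tested, 24.9% were called higher and 23.8% lower, so 8 of 10 higher is above the share over all genes. For 1 of 10 lower, 10 genes are too few to tell it apart from that share. The genes were chosen with earlier results of these data known, so this comparison is a description. Of all calls, 51.1% were higher, a split that became 65.1% with library sizes as the only scaling and 39.7% with upper-quartile factors, whereas the count of 8 higher members was the same under both. All 5 sensors were higher by at least 2-fold, as were 4.11% of all genes, and none of the adaptors and kinases was. The median log2 fold change was 1.56 over the 10 genes and 0.0009 over all genes tested. Values of siERK3 and siNTC libraries did not overlap for 9 of the 10 genes, against 43.2% of all genes in either direction. For each of these 9 an exact two-sided permutation test of log2 CPM gave p = 0.0286, the lowest value possible with 4 libraries in each group, and for Ticam1 it gave p = 0.0857.

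Values are given as CPM, counts relative to the library total as scaled by TMM, and fold changes are siERK3 over siNTC. Total counts were 9887357 to 9943572 per siERK3 library and 9854522 to 9920350 per siNTC library. Mapk6, which encodes Erk3, the target of the siRNA, was at 69.6 ± 4.80 CPM in siERK3 and 579 ± 18.1 CPM in siNTC adipocytes (SD, n = 4 each), with a log2 fold change of -3.06 (edgeR adjusted p = 2.09e-22). All 10 adipocyte markers were detected in every library and all were lower in siERK3, where they took 1.76 to 1.87% of counts, against 2.90 to 3.15% in siNTC libraries (median log2 fold change -0.79). In such bulk samples fewer cells of a type and less RNA per cell cannot be told apart. Of 6 preadipocyte markers 5 were measured, of which 4 were lower and Ly6a was higher (log2 fold change 6.46), and together they took 0.0345 to 0.0364% of counts in siERK3 and 0.0108 to 0.0119% in siNTC libraries. Ly6a alone carried the higher sum, since the other 4 took 0.00397 to 0.00438% of counts in siERK3 and 0.0105 to 0.0115% in siNTC libraries. Of 11 macrophage and leukocyte markers only Csf1r and Cd68 were in the count table, with 0.000666 to 0.00102% of counts in siERK3 and 0.000669 to 0.000958% in siNTC libraries. Cd68 was at 1.74 ± 0.311 CPM in siERK3 and 0.834 ± 0.271 CPM in siNTC adipocytes (SD, n = 4 each), which puts it in the count table only through the siERK3 libraries. Its call as higher is therefore a description, and Csf1r was not called. Of 5 endothelial markers only Pecam1 was measured, and it was not called. Pecam1 was over 1 CPM in 4 siERK3 libraries and 1 siNTC library, so it too is in the count table only through the siERK3 libraries. What part these cell type markers have in the values below was not tested.

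**Figure D1:**
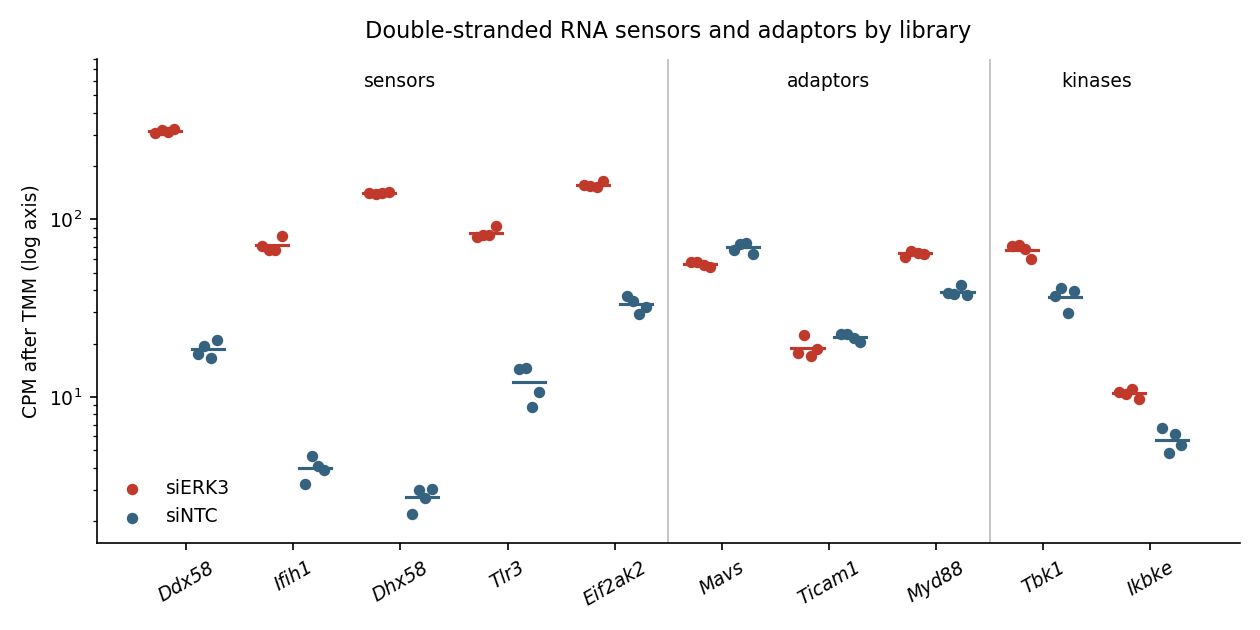
CPM after TMM scaling (log axis) of the 10 genes in each library, 4 siERK3 libraries (red) left of 4 siNTC libraries (blue), with a bar at the mean of each group and genes ordered as sensors, adaptors and kinases. The 5 sensors stand highest above siNTC, Mavs is lower in every siERK3 library, and the groups overlap only for Ticam1.

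The 3 RIG-I-like receptors had the largest fold changes of the 10 genes. Dhx58 (ENSMUSG00000017830, chr11:100694884-100704271 of mm10, minus strand), the modulator LGP2, was at 140.7, 138.6, 141.7 and 142.5 CPM in the 4 siERK3 libraries and at 2.19, 3.0, 2.71 and 3.05 CPM in the 4 siNTC libraries. The siERK3 libraries lay within a few CPM of each other and far above every siNTC library, which held only 21 to 29 counts of the gene, against 1404 to 1456 in siERK3 libraries. The log2 fold change was 5.68 (standard error, SE, 0.08, edgeR adjusted p = 1.92e-24), or 51.2-fold, number 74 from the highest of all genes tested. An antisense RNA, Dhx58os, overlaps its exons by 141 bases on the other strand and was itself higher (log2 fold change 5.42, edgeR adjusted p = 9.28e-21). As the library kit does not mark the strand, reads of that stretch cannot be told apart.

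Ddx58 (ENSMUSG00000040296, chr4:40203773-40239828, minus strand), which encodes the sensor RIG-I, was at 305, 319, 310 and 322 CPM in siERK3 libraries and at 17.4, 19.4, 16.6 and 20.8 CPM in siNTC libraries. It had the highest CPM of the 10 genes in every siERK3 library, and the groups were far apart. The log2 fold change was 4.08 (SE 0.07, edgeR adjusted p = 1.15e-23), or 16.9-fold. Ifih1 (ENSMUSG00000026896, chr2:62595798-62646255, minus strand), which encodes MDA5, a sensor of longer double-stranded RNA, was at 71.3, 67.3, 67.5 and 80.3 CPM in siERK3 libraries and at 3.23, 4.65, 4.07 and 3.89 CPM in siNTC libraries. Its siNTC values rest on 31 to 45 counts per library and its siERK3 values on 682 to 812, and no value of one group came near the other. The log2 fold change was 4.17 (SE 0.10, edgeR adjusted p = 1.61e-20), or 18.0-fold. Summed over the 3 receptors, the level was 526 ± 12.7 CPM in siERK3 and 25.3 ± 2.52 CPM in siNTC adipocytes (SD, n = 4 each), a ratio of means of 20.8.

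The endosomal sensor Tlr3 (ENSMUSG00000031639, chr8:45395665-45411080, minus strand) was at 79.3, 82.2, 81.3 and 92.3 CPM in siERK3 libraries and at 14.4, 14.6, 8.77 and 10.7 CPM in siNTC libraries. Its siNTC values varied more than those of any other of the 10 genes (SD 23.5% of the mean), yet the lowest siERK3 library was far above the highest siNTC library. The log2 fold change was 2.79 (SE 0.10, edgeR adjusted p = 4.71e-17), or 6.91-fold. Gm45542, antisense to Tlr3 over 381 exonic bases, was also higher (log2 fold change 3.35, edgeR adjusted p = 1.03e-06), from a mean of only 9.5 counts per library. Eif2ak2 (ENSMUSG00000024079, chr17:78852564-78882573, minus strand), which encodes PKR, was at 155.4, 154.4, 151.8 and 165.5 CPM in siERK3 libraries and at 37.0, 34.6, 29.3 and 32.3 CPM in siNTC libraries. It was the most abundant of the 5 sensors in every siNTC library and had the smallest fold change of them, 4.71-fold (log2 fold change 2.23, SE 0.06, edgeR adjusted p = 9.17e-19). Gm26637, a noncoding RNA on the other strand that shares 174 exonic bases with Eif2ak2, had a log2 fold change of 1.46 (edgeR adjusted p = 2.61e-06) from a mean of 36 counts per library. As the library kit does not mark the strand, reads of the stretches shared with Gm45542 and Gm26637 cannot be told apart from those of Tlr3 and Eif2ak2.

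The 3 adaptors did not change in 1 direction. Mavs (ENSMUSG00000037523, chr2:131234063-131248025, plus strand), through which RIG-I and MDA5 signal, was at 57.7, 57.3, 55.7 and 53.8 CPM in siERK3 libraries and at 67.1, 73.0, 74.1 and 63.9 CPM in siNTC libraries. All siERK3 values were below all siNTC values, and the change was small, a log2 fold change of -0.31 (SE 0.06, edgeR adjusted p = 0.000141). Under the alternative settings it lay between -0.38 and -0.22 and was called in each of them. Ticam1 (ENSMUSG00000047123, chr17:56269319-56276786, minus strand), which encodes TRIF, the adaptor of TLR3, was at 17.6, 22.4, 16.9 and 18.6 CPM in siERK3 libraries and at 22.7, 22.7, 21.6 and 20.4 CPM in siNTC libraries. The second siERK3 library lay among the siNTC libraries and the other 3 below them, and the gene was not called (log2 fold change -0.21, SE 0.09, edgeR adjusted p = 0.0536). Leaving out siERK3 replicate 2 gave -0.30 with an adjusted p of 0.0067 from edgeR, and leaving out siNTC replicate 4 gave -0.24 with 0.0467. Of the 17 alternative fits 7 called the gene lower and 10 did not. Some of the 7 kept all libraries, so the call depends on single libraries and on the settings.

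Myd88 (ENSMUSG00000032508, chr9:119335934-119341411, minus strand), the adaptor that TLR3 does not use, was at 61.8, 66.5, 64.9 and 64.3 CPM in siERK3 libraries and at 38.6, 38.0, 42.9 and 37.4 CPM in siNTC libraries. It was higher in all siERK3 libraries, by 1.64-fold (log2 fold change 0.71, SE 0.06, edgeR adjusted p = 6.55e-10). Acaa1a, which encodes a peroxisomal thiolase, overlaps Myd88 by 290 exonic bases on the other strand and was abundant, with a mean of 1627 counts per library and a log2 fold change of 0.50 (edgeR adjusted p = 8.94e-08). What part of the Myd88 counts came from Acaa1a was not tested. Together the 3 adaptors were at 139 ± 4.56 CPM in siERK3 and 131 ± 7.26 CPM in siNTC adipocytes (SD, n = 4 each), a ratio of means of 1.07, whereas the 5 sensors were at 767 ± 24.1 CPM in siERK3 and 70.7 ± 6.52 CPM in siNTC adipocytes, a ratio of 10.9.

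Both kinases were higher by less than 2-fold. Tbk1 (ENSMUSG00000020115, chr10:121546455-121586787, minus strand) was at 70.8, 71.6, 67.8 and 60.2 CPM in siERK3 libraries and at 37.0, 40.9, 29.5 and 39.8 CPM in siNTC libraries. The groups did not overlap, and the log2 fold change was 0.88 (SE 0.08, edgeR adjusted p = 3.11e-09), or 1.84-fold. Ikbke (ENSMUSG00000042349, chr1:131254343-131279606, minus strand), which encodes the related kinase IKKε, was at 10.7, 10.4, 11.1 and 9.69 CPM in siERK3 libraries and at 6.67, 4.85, 6.16 and 5.36 CPM in siNTC libraries. It had the lowest CPM of the 10 genes in every siERK3 library, and the groups did not overlap either (log2 fold change 0.86, SE 0.12, edgeR adjusted p = 3.56e-06, 1.82-fold). Antisense RNAs also overlap Ikbke, by 159 and 65 exonic bases.

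Levels per kilobase used the joined length of all annotated exons of a gene, such as 9018 bases for Ikbke and 8165 for Ifih1. The transcripts present may be shorter, so the order of genes within a group is approximate. That order differed between the groups. In siERK3 adipocytes Ddx58 (44.5 CPM per kilobase) and Dhx58 (43.1) stood highest, with ranges over libraries that overlapped, followed by Eif2ak2 (30.7) and Myd88 (25.0). Tbk1 (17.3), Mavs (16.8) and Tlr3 (16.1) overlapped with their neighbours, and below them came Ifih1 (8.77), Ticam1 (6.31) and Ikbke (1.16), each apart from the next. In siNTC adipocytes the adaptors Mavs (20.8 CPM per kilobase) and Myd88 (15.2) stood highest, each apart from the next. Then came Tbk1 (9.41), Ticam1 (7.31) and Eif2ak2 (6.51), which overlapped with their neighbours, and Ddx58 (2.63) and Tlr3 (2.33), which overlapped with each other. Dhx58 (0.836), Ikbke (0.639) and Ifih1 (0.485) stood lowest and overlapped likewise. In siERK3 adipocytes 3 of the 5 sensors thus had a higher level per kilobase than any adaptor or kinase, while in siNTC adipocytes each sensor was below Mavs and Myd88.

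**Figure D2:**
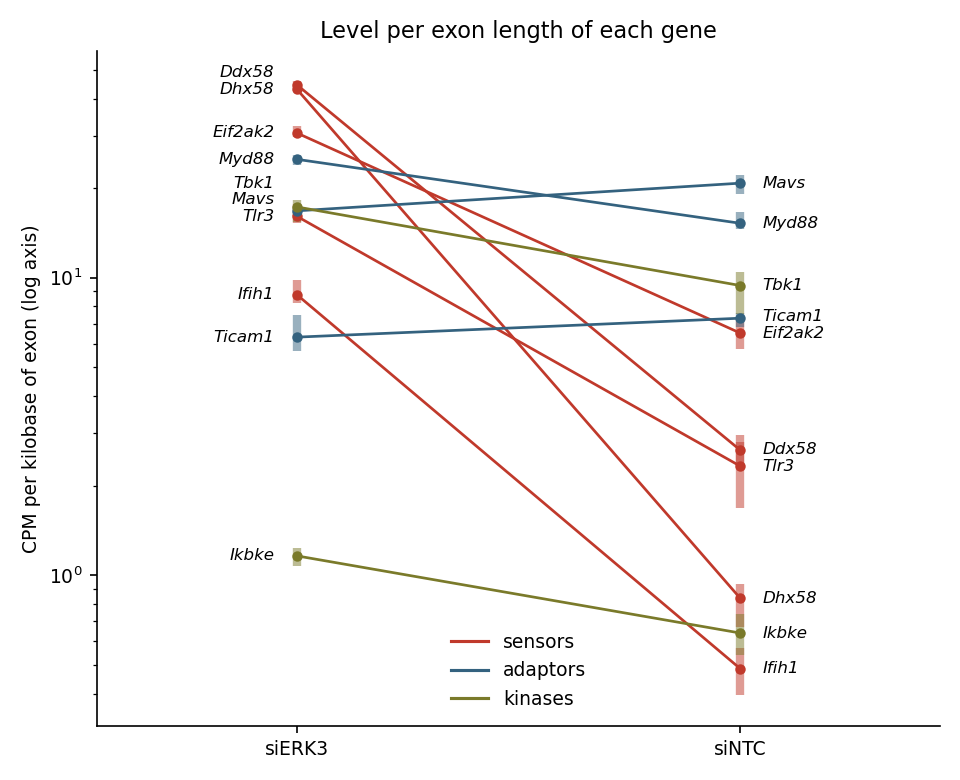
Mean CPM per kilobase of annotated exon (log axis) of the 10 genes in siERK3 (left) and siNTC adipocytes (right), with a line joining the 2 means of each gene, a bar for the range over the 4 libraries of a group, and colors for sensors, adaptors and kinases. Ddx58 and Dhx58 are highest in siERK3 (44.5 and 43.1), and Mavs and Myd88 are highest in siNTC (20.8 and 15.2).

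Ratios of members within a library do not depend on the scaling, and 6 pairs were compared. Dhx58 over Ddx58, the modulator against a sensor it acts on, differed by 1.59 on the log2 scale between the groups (95% interval 1.39 to 1.79), so that LGP2 transcripts were 3.01-fold more frequent relative to those of RIG-I in siERK3 than in siNTC adipocytes. Ifih1 over Ddx58, the other RIG-I-like sensor against RIG-I, differed by 0.09 (-0.21 to 0.38). Tlr3 over its adaptor Ticam1 differed by 3.03 (2.59 to 3.48), or 8.18-fold. The intervals come from the spread between the 4 libraries of each group.

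Among the adaptors and kinases, Myd88 over Ticam1 differed by 0.93 (0.70 to 1.17), or 1.91-fold. Mavs over Ticam1 differed by -0.09 (-0.33 to 0.15), and Ikbke over Tbk1 by -0.02 (-0.49 to 0.44). For Dhx58 over Ddx58, Tlr3 over Ticam1 and Myd88 over Ticam1 the groups did not overlap, and the exact two-sided permutation test gave p = 0.0286, the smallest it can give, and 0.0571 after Benjamini-Hochberg adjustment over the 6 pairs, so none passed 0.05 after it. For Ifih1 over Ddx58, Mavs over Ticam1 and Ikbke over Tbk1 the exact permutation p was 0.486, 0.457 and 0.914. The intervals of these 3 still allow differences of about the size of the Mavs change, and that of the kinases allows larger ones.

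**Figure D3:**
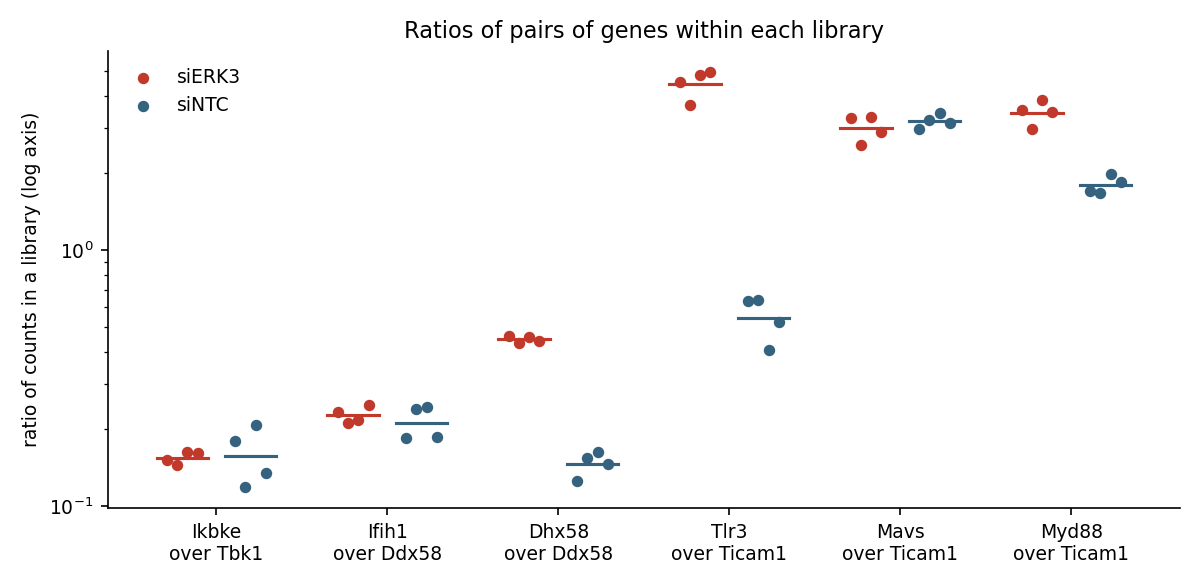
Ratio of the counts of a pair of genes within each library (log axis) for 6 pairs, 4 siERK3 libraries (red) left of 4 siNTC libraries (blue), with a bar at the mean. Dhx58 over Ddx58, Tlr3 over Ticam1 and Myd88 over Ticam1 are higher in every siERK3 library than in any siNTC library, and the other 3 pairs overlap.

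The relatives and partners of the 10 genes were described by lists, beside the shares over all genes tested, 24.9% called higher and 23.8% lower. Of 48 other DDX and DHX helicases, the wider family of the RIG-I-like receptors, 8 were higher, 4 lower and 36 not called, with a median log2 fold change of 0.01, against the median of 4.17 of Ddx58, Ifih1 and Dhx58. With library sizes as the only scaling 15 were higher, and with upper-quartile factors 5 were higher and 9 lower. Ddx60, described in human cells as a cofactor of RIG-I, was at 96.4 ± 5.37 CPM in siERK3 and 0.861 ± 0.427 CPM in siNTC adipocytes (SD, n = 4 each), with 928 to 1050 counts per siERK3 library and 5 to 14 per siNTC library. It was over 1 CPM in 4 siERK3 libraries and 1 siNTC library, so it is in the count table only through the siERK3 libraries, and its fitted log2 fold change of 6.79 and its place among the higher genes of this and the next list are a description. The next largest were Ddx24 (0.87) and Dhx8 (0.27), and the lower ones were led by Ddx27 (-0.47), Ddx17 (-0.32) and Ddx39b (-0.21). The abundant helicases Ddx5 and Ddx3x had log2 fold changes of 0.01 each and were not called.

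Of 31 further genes of RIG-I-like receptor signaling, 18 were higher, 7 lower and 6 not called (median log2 fold change 0.28). Over all genes tested 24.9% were higher and 23.8% lower, so 7 of 31 lower is near that share. The largest besides Ddx60 were Irf7, an interferon regulatory factor that TBK1 and IKKε phosphorylate, at 301 ± 13.0 CPM in siERK3 and 7.04 ± 0.586 CPM in siNTC adipocytes, and Trim25, a ubiquitin ligase that acts on RIG-I, at 453 ± 11.2 CPM in siERK3 and 75.7 ± 3.21 CPM in siNTC adipocytes (SD, n = 4 each). Their log2 fold changes were 5.41 (edgeR adjusted p = 5.63e-25) and 2.58 (edgeR adjusted p = 1.01e-21). Lower genes included Nlrx1 (-0.73), Pcbp2 (-0.42) and Tbkbp1 (-0.97), the last of which encodes a TBK1-binding protein. Tank (-0.12, edgeR adjusted p = 0.122), another TBK1-binding protein, and Itch (0.01, edgeR adjusted p = 0.881), a ubiquitin ligase of MAVS, were not called.

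Of 26 other Toll-like receptors, cofactors and adaptors 14 were measured. Of these 9 were higher, 2 lower and 3 not called (median log2 fold change 0.34), beside 24.9% higher and 23.8% lower over all genes tested. Tlr2, a receptor of bacterial lipoproteins, had 46 to 73 counts per siERK3 library and 4 to 10 per siNTC library, a fitted log2 fold change of 2.98. Cd14, a coreceptor, had 1.69, and Unc93b1, which carries TLR3 and other receptors to endosomes, had 1.36, at 74.8 ± 2.78 CPM in siERK3 and 29.1 ± 2.51 CPM in siNTC adipocytes (SD, n = 4 each). Tlr8 (-0.98) and Irak1 (-0.18) were lower. Tlr2 is in the count table only through the siERK3 libraries and Tlr8 only through the siNTC libraries, so their places in these counts are a description. Without siERK3 replicate 1 only 1 of the 14 was lower. Hsp90b1, a chaperone of Toll-like receptors (0.11, edgeR adjusted p = 0.233), and Ly96, the partner of TLR4 (0.38, edgeR adjusted p = 0.201), were not called.

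**Figure D4:**
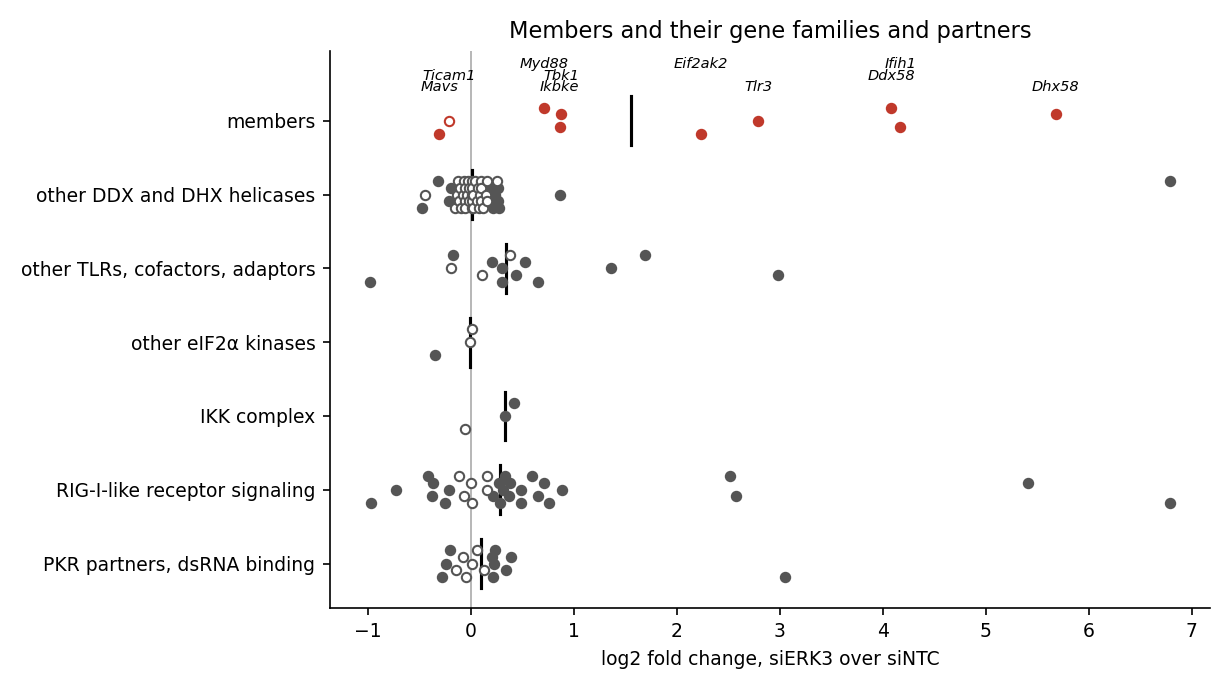
Log2 fold change, siERK3 over siNTC, of the 10 genes (top, red, named) and of the other genes of their families and partners, 1 point per gene, filled where called at an adjusted p under 0.05 and open where not, with a black bar at the median of each row. The 10 genes have a median of 1.56, and the 48 other DDX and DHX helicases one of 0.01 with Ddx60 alone at 6.79.

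Of the other eIF2α kinases, Eif2ak3, which encodes PERK, the kinase of endoplasmic reticulum stress, was lower (log2 fold change -0.34, edgeR adjusted p = 0.000238), and Eif2ak1 (-0.01) and Eif2ak4 (0.01) were not called, against 2.23 for Eif2ak2. Of 16 PKR partners and double-stranded RNA binding proteins, 7 were higher, 3 lower and 6 not called (median 0.09). Over all genes tested the shares were 24.9% higher and 23.8% lower. The count of higher partners was 4 with DESeq2 and with upper-quartile factors. Adar, which edits double-stranded RNA, was at 142 ± 0.632 CPM in siERK3 and 17.0 ± 1.54 CPM in siNTC adipocytes (SD, n = 4 each; log2 fold change 3.05, edgeR adjusted p = 1.53e-21). Eif2s1, which encodes eIF2α, had 0.39 and Eif2s2 had 0.34, while Ppp1r15b, a subunit of the eIF2α phosphatase, had -0.28, Stau1 -0.24 and the other editing enzyme Adarb1 -0.20. Dhx9, a helicase that binds double-stranded RNA, had 0.01 and was not called. Of the IKK complex, to which TBK1 and IKKε are related, Chuk (0.42) and Ikbkg (0.33) were higher and Ikbkb (-0.06, edgeR adjusted p = 0.502) was not called.

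Of 26 interferon and cytokine genes that lie downstream of these pathways, 5 were in the count table. The interferon-beta and interferon-alpha genes are not among them and were not analysed here. The chemokine gene Cxcl10 had 769 to 883 counts per siERK3 library and 1 to 5 per siNTC library (81.4 ± 5.40 CPM in siERK3 and 0.313 ± 0.191 CPM in siNTC adipocytes, SD, n = 4 each). Ccl5 had 169 to 209 counts per siERK3 library and 0 to 3 per siNTC library, and Il6 had 17 to 29 per siERK3 library and 0 to 2 per siNTC library. These 3 genes were over 1 CPM in every siERK3 library and in no siNTC library, so they are in the count table only through the siERK3 libraries and had to be higher there. With so few counts in siNTC libraries the size of these 3 differences is set by single reads, and no fold is given. The other two, named after their values were seen, were Ccl2, with 181 to 188 counts per siERK3 library and 8 to 17 per siNTC library (3 of 4 over 1 CPM), and Cxcl1, with 51 to 64 per siERK3 library and 13 to 20 per siNTC library.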

How the data were processed

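Poly(A) RNA was sequenced from unstranded libraries. The deposited raw counts cover 18088 genes, all of them over 1 CPM in 4 libraries or more, and the authors also gave a table of their own comparison (log2 fold change, average log2 CPM, p-value, adjusted p-value), which was not used. The submitters' processing notes name bcl2fastq, FastQC, Bowtie2, edgeR and the build mm10. The counting program, annotation and strand setting are not given in the sources used here.

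Genes were tested with edgeR 4.0.16 in R 4.3.3: filterByExpr defaults (minimum count 10, minimum total 15), TMM factors, and the quasi-likelihood test without covariates. Genes were called at a Benjamini-Hochberg adjusted p under 0.05 over all 17972 genes tested, and standard errors were the log2 fold change over the root of its F statistic. Ratios within a library used counts plus 0.5 (scipy 1.17.1, Python 3.11.15). Exon lengths and overlaps came from GENCODE M21, in which 18050 gene IDs were found. The fits were tested on simulated data. Total counts were 9854522 to 9943572 per library, and replicates differed by more than sampling noise in all 12 pairs.

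The members and lists were chosen with earlier results of these data known. All 10 members and Mapk6 are named, and of each list the 3 called genes with the largest change per direction, the 2 most abundant uncalled genes and any cell type marker; some of these are not reported here. Dhx58os, an antisense RNA, was left out of the helicases. Alternatives were DESeq2 1.42.0, the likelihood-ratio test, limma-voom (limma 3.58.1), RLE factors, upper-quartile factors, library sizes only, no filter, 5 CPM in at least 4 libraries, a replicate block, leaving out each library, at least 2-fold, and 1 added in ratios.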

Additional observations from a re-analysis of the deposited data

How the results depend on the processing

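Of the 10 members, 9 kept their direction and their call under all 17 alternative fits, and Ticam1 kept its direction. The number of members higher was 8 in all of these fits and 5 when at least 2-fold was required. The number lower, 1 in the reported fit, was 2 with the filter of 5 CPM, with the likelihood-ratio test, with limma-voom and with upper-quartile factors, lay between 1 and 2 when single libraries were left out, and was 0 at 2-fold or more. With the replicate block it was also 2. The added gene was Ticam1 each time, whose log2 fold change lay between -0.30 and -0.13 and whose adjusted p, 0.0536 in the reported edgeR fit, lay between 0.0067 and 0.248. Whether the replicate numbers pair the libraries is not stated. The deviations of same-numbered libraries correlated at -0.01 to 0.09, and 2 of 4 siERK3 libraries correlated best with their own number. Such values do not exclude a shared batch. The block left the other 9 calls as they were. The number of Toll-like receptor genes lower was 1 with the filter of 5 CPM and with library sizes only. Tlr8, called lower in the reported fit, had means of 1.08 CPM in siERK3 and 2.14 CPM in siNTC adipocytes, so the filter of 5 CPM removed it. The cause of the other changes was not tested.

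Depth limited Ifih1 and Dhx58 in siNTC libraries, with 31 to 45 and 21 to 29 counts, and Cxcl10, Ccl5 and Il6, with at most 5. Counting error is only a part of the spread, as replicates differed by more than sampling noise. PCR copies were not told apart from separate molecules, and the source of the added spread was not tested. Antisense genes share exons with Dhx58, Tlr3, Eif2ak2, Myd88 and Ikbke. With 4 libraries a group and no untreated cells, effects of transfection common to both groups cannot be told apart from the level in siNTC. Effects of the siERK3 reagent itself cannot be told apart from those of Erk3 loss either, as no other siRNA against Erk3 was analysed.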

Other observations

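Single libraries did not rank alike across the 10 genes. siERK3 replicate 4 had the highest CPM of its group for all 5 sensors and the lowest for Mavs, Tbk1 and Ikbke, while siERK3 replicate 2 was highest for Ticam1, Myd88 and Tbk1. Among siNTC libraries replicate 3 was lowest for Ddx58, Tlr3, Eif2ak2 and Tbk1. No test was made of these orders. In none of the 20 groups of 4 values did a single library stand apart by Dixon's criterion at the 95% level, which chance would pass in about 1 of 20.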
